A study of Manihot esculenta with 32 samples.

Results

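The genes described here are cassava loci with higher mean transcript levels in leaf, midvein, petiole, stem and lateral bud than in roots and embryogenic cultures. The shoot apical meristem could lie with either group. These loci were chosen by their tissue means, as follows. For each locus that carries a gene name, the 11 tissue means of FPKM, a fragment count scaled by transcript length and library size, were put on the scale log2(mean + 1) and sorted, and the largest step between neighbours, called the gap below, was found. A locus was a member when the gap was at least 1.5, the highest tissue mean was at least 10 FPKM, and the tissues above the gap were leaf, midvein, petiole, stem and lateral bud, with or without the shoot apical meristem (SAM). Gene names on a list of 11 were left out beforehand, which removed 8 loci that met the rule. This gave 184 loci of 32732 with a gene name, and 0.877% of the 20991 named loci that reached 10 FPKM in any tissue. The SAM lay above the gap for 122 members and below it for 62. Since the tissue means selected these loci, the excess in aerial organs is given as a description, with no test.

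Green plant organs are built around the chloroplast, where pigment-binding proteins gather light, photosystems and carriers pass electrons along the thylakoid membrane, and enzymes of the stroma fix carbon. Most chloroplast proteins are encoded in the nucleus, and their genes are known to respond to light. Aerial organs also carry a cuticle over the epidermis, which roots and callus lack in that form. Roots and embryogenic cultures hold plastids of other types.

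All samples were cultivar TME 204, and no treatment was contrasted among the plant organs. Leaf, midvein, petiole, stem, lateral bud, SAM, root apical meristem (RAM), fibrous root and storage root came from glasshouse plants 3 months old. OES, organized embryogenic structures, and FEC, friable embryogenic callus, are cultured tissues. By the study's methods both were grown on media with picloram and sucrose. The basal salts differed, and tyrosine and moxalactam were added for FEC. The medium therefore cannot be told apart from the tissue in any comparison of OES with FEC, or of either culture with a plant organ. The labels give 4 weeks for OES and 7 weeks for FEC, and the study's methods give another age for FEC. There were 3 libraries per tissue and 2 for storage root, 32 in all. Organs were dissected by hand, and the study's methods state that many of them have no sharp boundary. Each SAM and RAM library pooled 6 meristems, and its RNA was isolated with a different kit and fragmented with less enzyme, so these steps cannot be told apart from the tissue. Libraries held 4175114 to 24123487 fragments on named loci, with a median of 11656665. In bulk tissue, fewer cells of a type and less RNA per cell cannot be told apart.

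The members took a large share of the transcripts of green organs. They made up 10.4% ± 0.275 (SD, n = 3) of the fragments on named loci in leaf, 6.92% ± 0.217 in midvein, 3.52% ± 0.327 in stem, 3.23% ± 0.443 in petiole and 2.204% ± 0.366 in lateral bud. In the SAM the share was 0.955% ± 0.0408. Petiole and stem libraries overlapped, at 2.82% to 3.70% and 3.20% to 3.86%. In the roots and cultures the mean share lay between 0.0222% in RAM and 0.0600% in OES, so even the lowest lateral bud library, at 1.96%, stood far above the highest OES library, at 0.0686%.

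**Figure D1:**
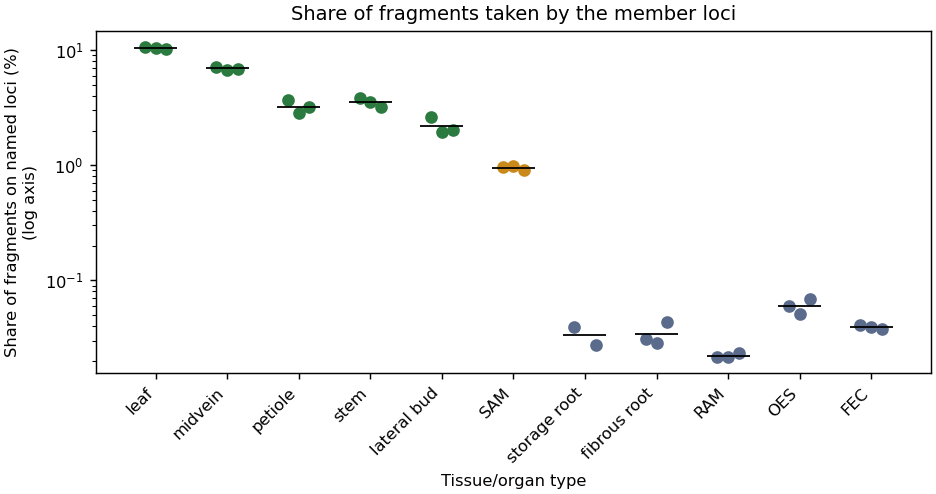
Share of fragments on named loci that fell on the 184 members (log axis, percent), by tissue/organ type. Points are libraries and horizontal bars are tissue means; leaf libraries lie between 10.1% and 10.7%, SAM libraries between 0.908% and 0.982%, and every root or culture library is at or under 0.0686%.

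The median member had a mean of 167 FPKM in leaf, 102 in midvein, 52.6 in stem, 50.4 in petiole, 34.7 in lateral bud and 13.9 in SAM. In the other 5 tissues the median lay between 0.365 FPKM in RAM and 0.656 FPKM in fibrous root. In their highest tissue, 119 members reached 100 FPKM and 45 reached 1000 FPKM. Leaf was the highest tissue of 135 members (73.4%). The rule left only the 5 aerial organs and SAM as possible highest tissues, and of the 8391 named loci of at least 10 FPKM with their highest mean in one of these 6, 41.1% were highest in leaf. Lateral bud was the lowest of the 5 aerial organs for 114 members. For 174 members no library of the 5 aerial organs (15 libraries) reached down to any of the 14 root and culture libraries, and for 10 members they overlapped. Among all named loci of at least 10 FPKM, 3.25% were free of overlap in this direction, and since the same values selected the members, nothing is read from the difference.

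**Figure D2:**
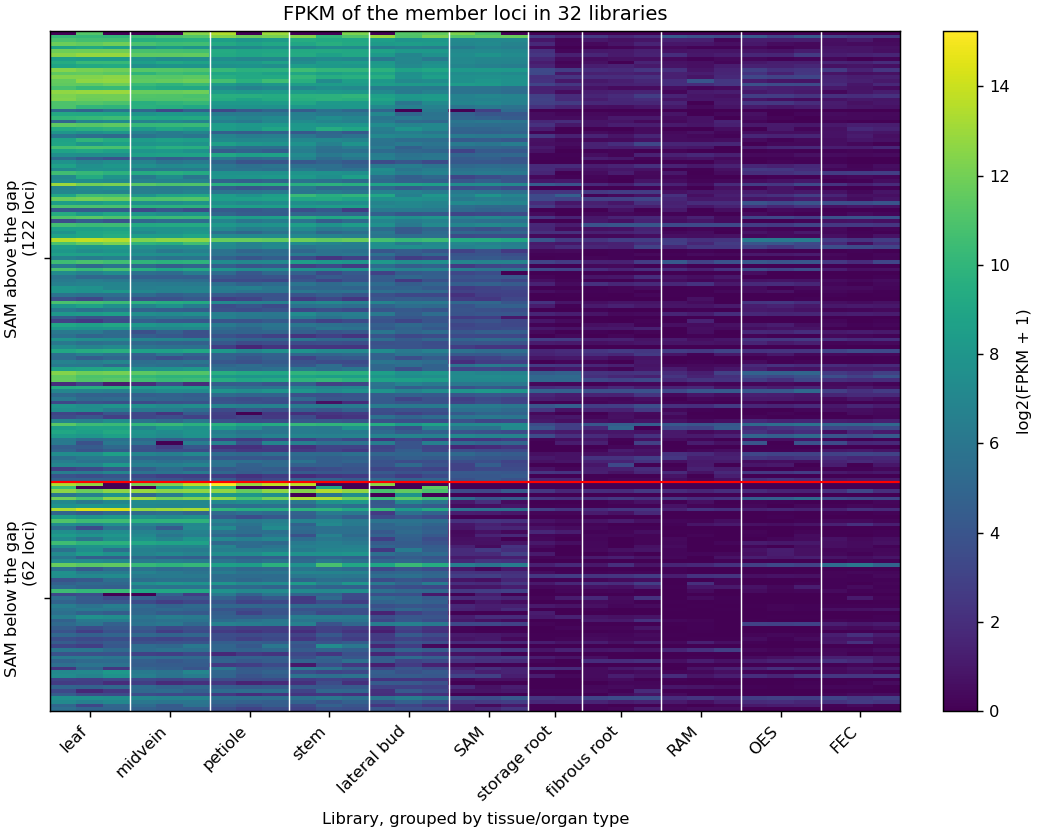
Heat map of log2(FPKM + 1) for the 184 members (rows) in the 32 libraries (columns, grouped by tissue/organ type), with the 122 loci that have SAM above the gap over the red line and the 62 others under it, each sorted by gap. The 5 aerial organs are bright in both blocks, SAM lies above the gap in the upper block and below it in the lower one by the rule, and the few rows with dark cells among aerial libraries at the top of each block are loci with very few fragments.

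The gap ranged from 1.53 to 11.00 with a median of 2.68. It was at least 2 for 137 members, 3 for 71, 4 for 27 and 5 for 16. Of the 5 largest gaps, 4 belonged to loci with at most 4 fragments in any aerial library. These were Manes.04G025900, Manes.S095000, Manes.14G155700 and Manes.03G090400, none with an annotation. Manes.04G025900 was listed at 11502, 6740 and 0 FPKM in leaf and at 12871, 0 and 0 FPKM in stem, although its highest fragment count was 3. Values of this kind switch between 0 and very high FPKM from one library to the next. With Manes.10G108800, which reached 9 fragments, 5 members stayed under 10 fragments in all aerial libraries, and all 5 were among the 10 members with overlap. The single loci whose levels are described below are among the other 179. Counts, shares and medians given for all members include the 5.

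**Figure D3:**
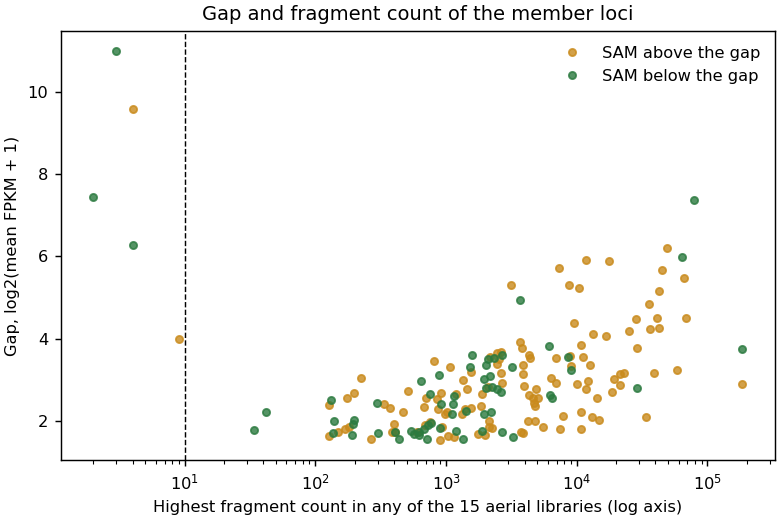
Gap on the log2(mean FPKM + 1) scale against the highest fragment count in any of the 15 libraries of the 5 aerial organs (log axis), 1 point per member, coloured by whether SAM lay above the gap. The dashed line is at 10 fragments; 5 members lie left of it, and they include the largest gap, 11.00.

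Among well-covered loci, Manes.14G166500 had the largest gap, 7.37, followed by Manes.01G112600 at 6.19. Manes.14G166500, which has no annotation in the lists used here, gave 6195, 3495 and 6166 FPKM in leaf, 5432, 11056 and 6723 in stem, and 1757, 2999 and 1867 in lateral bud. Its SAM libraries held 9.86, 8.39 and 18.7 FPKM, and no root or culture library exceeded 8.55 FPKM. Leaf, midvein, petiole and stem overlapped for this locus, while all 3 lateral bud libraries were lower than every library of those organs. Manes.15G039800, also without annotation, reached similar levels, with 10124, 10282 and 3680 FPKM in stem and 1282, 2670 and 1476 in lateral bud. Here lateral bud overlapped with leaf and petiole, whose lowest libraries held 1798 and 1765 FPKM. Its SAM libraries, at 36.8, 14.4 and 19.8 FPKM, overlapped with those of OES, at 22.1, 23.5 and 37.1. These unannotated loci were thus among the most abundant members in petiole and stem.

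Manes.01G112600 encodes a protein of the bifunctional inhibitor/lipid-transfer family, small secreted proteins of which some bind lipids. It gave 1267, 1177 and 1071 FPKM in leaf, 5424, 3514 and 4379 in petiole, and 7652, 2130 and 4685 in lateral bud. The SAM, at 2317, 2775 and 3320 FPKM, was within the range of lateral bud. Roots and cultures lay between 2.07 and 19.3 FPKM. Lateral bud exceeded leaf in every library, and the edgeR fit gave a log2 change of -2.15 (SE 0.468, adjusted p = 0.000331) for leaf over lateral bud. That call was lost without leaf replicate 3 or without lateral bud replicate 1.

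**Figure D4:**
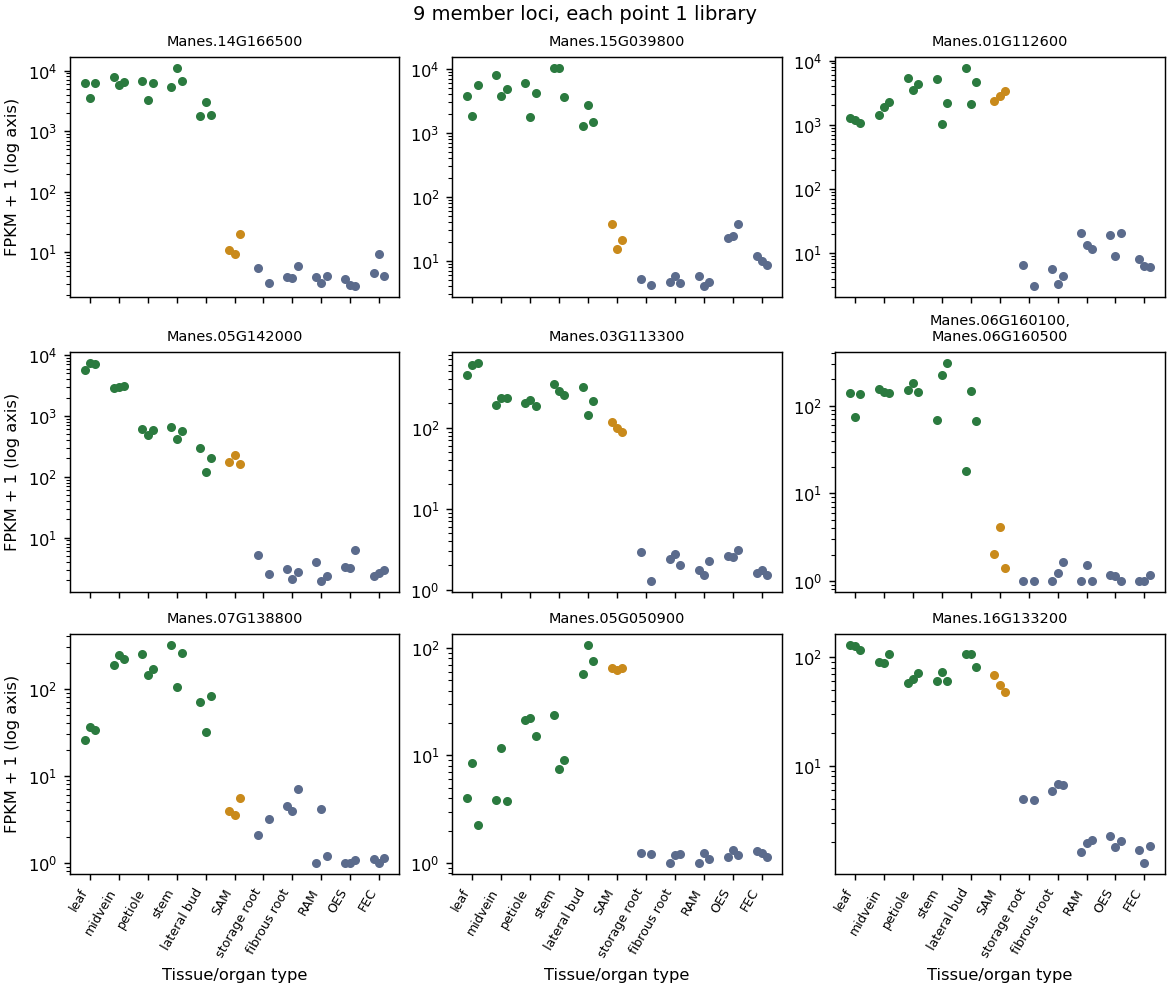
FPKM + 1 (log axis) of 9 members in each library, by tissue/organ type, with the 5 aerial organs in green, SAM in orange and roots and cultures in grey-blue. Manes.05G142000 falls from leaf to lateral bud, Manes.05G050900 rises from leaf (1.26 to 7.57 FPKM) to lateral bud (56.6 to 106 FPKM), and Manes.14G166500, Manes.15G039800, Manes.06G160100/Manes.06G160500 and Manes.07G138800 are low in SAM.

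A stricter view counts members above 10 FPKM in all 15 aerial libraries and under 1 FPKM in all 14 root and culture libraries. There were 22, and 4 of them were also above 10 FPKM in every SAM library. The first of these 4 by gap, Manes.11G089300, had 82.5 FPKM in its lowest aerial library, 72.9 in its lowest SAM library and 0.792 in its highest root or culture library. The others were Manes.05G084800, Manes.08G098700 and Manes.01G059700, the last annotated as an NAD(P)-binding Rossmann-fold protein. These 22 were counted after their values had been seen. The same values had selected the members, and no share over all named loci was computed, so nothing is read from the count.

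Functions could be assigned only in part, since 58 of the 184 members appear with an annotation in the gene lists of the study, which hold differentially expressed genes. The largest group was the light reactions. Of 55 annotated loci with such words, 15 were members, 14 of them with SAM above the gap, and the 8 loci left out by name also belonged to it. Per library, the median over these 15 members lay between 1842 and 2324 FPKM in leaf, 831 and 1112 in midvein, 214 and 296 in petiole, 284 and 330 in stem, 81.1 and 190 in lateral bud, and 87.3 and 116 in SAM. Lateral bud and SAM overlapped. The same median did not exceed 3.45 FPKM in any root or culture library.

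Plastocyanin carries electrons between the cytochrome complex and photosystem I, and Manes.05G142000 (plastocyanin 1) had the largest gap of the group, 5.48. It gave 5574, 7400 and 7200 FPKM in leaf, 2888, 2940 and 3118 in midvein, 647, 419 and 559 in stem, 295, 120 and 206 in lateral bud, and 171, 226 and 160 in SAM. Each step from leaf to midvein to stem to lateral bud was free of overlap, whereas SAM lay within the lateral bud range. Manes.14G167100, a light-harvesting protein of photosystem II, gave 2817, 3054 and 2644 FPKM in leaf and 460, 196 and 281 in lateral bud. Manes.12G097200 encodes a protein of the oxygen-evolving complex, which helps split water, and gave 5275, 5255 and 6131 FPKM in leaf and 712, 216 and 392 in lateral bud. For both, lateral bud replicate 1 was the highest bud library.

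The most abundant member of the group was the locus Manes.17G066800/Manes.17G066900, which encodes the light-harvesting subunit LHCB1 and whose 2 genes cannot be divided. It reached 12549, 14507 and 12018 FPKM in leaf, 1741, 1204 and 1379 in lateral bud, and 640, 673 and 531 in SAM. Ferredoxins accept electrons from photosystem I, and among the 2Fe-2S ferredoxin-like members Manes.07G020100 held a nearly level base outside the leaf blade and midvein. Its stem libraries gave 361, 347 and 334 FPKM, lateral bud 353, 309 and 296, and SAM 338, 316 and 214, against 2874, 2840 and 3718 in leaf. The only light-reaction member with SAM below the gap was Manes.06G090800/Manes.06G091000, annotated as a protein of NDH-dependent electron flow. It gave 1475, 927 and 838 FPKM in leaf, 19.96, 20.8 and 13.9 in lateral bud, and 0.589, 0.580 and 0.743 in SAM.

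Carbon fixation contributed 2 members of 30 annotated loci. Manes.05G137400 encodes a small subunit of Rubisco, the enzyme that fixes carbon dioxide, and gave 10502, 21222 and 20774 FPKM in leaf. It fell to 897, 931 and 564 in stem, 1158, 318 and 636 in lateral bud, and 53.4, 50.6 and 50.3 in SAM. SAM lay below every lateral bud library and above every root and culture library, of which the highest held 6.45 FPKM. Manes.05G003500 encodes a CP12 protein, known from other plants to regulate Calvin cycle enzymes, and gave 3506, 4170 and 3732 FPKM in leaf and 67.2, 90.3 and 82.8 in SAM. Its levels in storage root, 9.25 and 6.95, and fibrous root, 6.401, 6.44 and 8.05, lay above all OES and FEC libraries, which did not exceed 1.36 FPKM.

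Pigment synthesis contributed 4 of 12 annotated loci. Protochlorophyllide oxidoreductase carries out the light-dependent step of chlorophyll synthesis, and 2 loci with this annotation were members. Manes.03G113300 gave 451, 589 and 630 FPKM in leaf, 349, 281 and 255 in stem, 315, 143 and 215 in lateral bud, and 118, 97.6 and 87.1 in SAM. Its range over the 5 aerial means was 1.46 on the log2 scale, against 5.01 for plastocyanin. Manes.15G085400 gave 151, 209 and 201 FPKM in leaf and 177, 59.0 and 88.3 in lateral bud, so that leaf and bud overlapped. Manes.09G073800, annotated as the diiron protein Crd1 of chlorophyll synthesis, was steeper, with 1898, 1183 and 1748 FPKM in leaf and 144, 106 and 118 in lateral bud. Phytoene synthase opens the carotenoid pathway, and its locus Manes.02G081700 gave 193, 140 and 165 FPKM in leaf, 42.2, 47.7 and 33.7 in lateral bud, and 6.15, 6.41 and 3.85 in SAM, where it met the storage root values of 4.62 and 5.54.

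All 4 loci annotated as BURP domain proteins, plant-specific proteins of the cell exterior, were members, and all 4 had SAM below the gap. This list was added after the members' annotations had been read, and loci outside the study's shortened gene lists were not counted. Nothing is therefore read from its share of members. Each of these loci joins several gene names, which cannot be divided. The library median over the 4 was 65.3 to 155 FPKM in leaf, 54.4 to 189 in stem, 11.6 to 98.6 in lateral bud and 0.700 to 2.21 in SAM. Manes.06G160100/Manes.06G160500 gave 140, 74.2 and 134 FPKM in leaf, 68.3, 226 and 307 in stem, and 17.0, 147 and 66.1 in lateral bud. Replicates of stem and lateral bud differed widely, and the organs overlapped. Its SAM libraries held 1.05, 3.09 and 0.409 FPKM. Manes.06G160600/Manes.06G160800 was at 4.92, 50.5 and 29.4 FPKM in lateral bud, with replicate 1 again the lowest. Manes.03G065700/Manes.03G066300 was the most abundant of them, at 3370, 2571 and 2969 FPKM in leaf.

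Of 143 annotated cuticle and surface lipid loci, 3 were members: the lipid-transfer locus above and a pair of esterases or lipases. Manes.02G107700/Manes.02G107900, an SGNH hydrolase, gave 335, 239 and 258 FPKM in leaf, 12.9, 104 and 36.9 in stem, and 0.383, 1.89 and 2.42 in SAM. Manes.15G115900, a GDSL-like lipase, was instead as high in petiole (103, 86.7 and 74.2 FPKM) and lateral bud (85.9, 102 and 73.4) as anywhere, and leaf was lower, at 38.0, 56.8 and 26.1. Its SAM libraries, at 8.78, 8.84 and 7.13 FPKM, overlapped with OES, at 7.11, 6.71 and 7.32.

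Light signalling contributed 3 of 50 annotated loci. The B-box zinc finger protein Manes.04G044000 belongs to a family of regulators known for roles in light responses, and gave 355, 323 and 435 FPKM in leaf, 114, 134 and 112 in lateral bud, and 147, 129 and 117 in SAM. Phototropins are blue-light receptors, and Manes.11G138200 (phototropin 1) gave 86.1, 56.3 and 60.03 FPKM in leaf, 13.5, 10.8 and 11.8 in lateral bud, and 10.9, 11.5 and 7.53 in SAM. Manes.02G218100, of the NPH3 family that acts with phototropins, was highest in midvein, at 57.7, 52.7 and 54.5 FPKM, with no overlap with leaf, at 38.8, 26.3 and 23.0. Its SAM values, 0.768, 0.837 and 1.33, overlapped with those of roots.

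Transcription factors gave 4 of 477 annotated loci, the B-box gene included. The homeobox gene Manes.01G090900 was the only annotated leaf and shoot development locus among the members (1 of 178), and SAM was its highest tissue, at 50.3, 74.9 and 63.2 FPKM, overlapping with leaf at 68.8, 65.5 and 37.5. Manes.06G131300, of the integrase-type DNA-binding class, varied between bud libraries, with 4.60, 84.7 and 23.8 FPKM. Manes.01G263500/Manes.01G263600, AGAMOUS-like, gave 28.6, 26.0 and 33.7 FPKM in leaf and 7.09, 6.64 and 6.72 in lateral bud. Defence and secondary metabolism gave 5 of 264 loci, cell wall 1 of 145, chloroplast gene expression and repair 1 of 65 and transport 2 of 255. The chloroplast gene expression and repair locus, Manes.06G057000, is also counted among the light-reaction members. Of the transport loci, the aquaporin Manes.01G059600 was highest in SAM (240, 306 and 239 FPKM) and kept 27.9 and 26.1 FPKM in storage root.

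The 122 members with SAM above the gap had a median SAM mean of 31.5 FPKM, and the 62 others 1.48 FPKM, of which 26 were at or under 1 FPKM. That split was made by the rule. For 21 of the 122, the SAM mean exceeded the lateral bud mean, and for 5 members SAM was the highest tissue of all. Manes.05G050900, without annotation, belonged to neither count, since its lateral bud mean exceeded its SAM mean. Its leaf libraries, at 2.97, 7.57 and 1.26 FPKM, all lay below its SAM libraries, at 63.8, 61.1 and 64.0. The 62 loci with SAM below the gap held the BURP loci, the peroxidase Manes.07G138800 and the Rubisco small subunit locus. Lying below the gap did not always mean a low level, since 5 of the 62, the Rubisco locus among them, had a SAM mean of at least 10 FPKM.

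Whether members differed among the aerial organs was not fixed by the rule, apart from limits set by the gap and the highest mean. No step between aerial organs could exceed the gap. The limit of 10 FPKM could be met in a single organ: 177 members reached it in leaf, 161 in stem, 167 in petiole and 167 in lateral bud. Leaf against stem, leaf against lateral bud and petiole against stem were compared by the quasi-likelihood F test of edgeR. The test covered all named loci whose mean reached 1 FPKM on either side. Calls required a Benjamini-Hochberg adjusted p under 0.05 and, between the mean FPKM values, a ratio over 4. Leaf and stem are each used in more than 1 comparison, so the results are given side by side. The shares of all tested loci include loci highest in roots or cultures, which no member was. They are an unlike set, so the shares of members are set beside them as a description.

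Most members were higher in leaf than in stem. Of the 184, 76 (41.3%) were called higher in leaf, where 10.3% of all tested loci were, and 5 (2.72%) were called higher in stem, against 14.3% of all. The median log2 change of leaf over stem was 1.72 for members and -0.07 for all tested loci. Of the 15 light-reaction members 13 were called, with a median of 2.61. Light-reaction loci as a whole were similar: of 55 tested, members included, 44 were called higher in leaf, with a median of 2.60. The gene lists that gave the annotations include genes differing between leaf and fibrous root, so being annotated already depends in part on the leaf level. Of the 126 members without annotation, 50 were called higher in leaf and 4 in stem. Among the 122 members with SAM above the gap 65 were called higher in leaf and 1 in stem, and among the 62 others 11 and 4.

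Manes.03G033200, without annotation, had the largest ratio, with 162, 113 and 141 FPKM in leaf and 4.01, 4.16 and 4.12 in stem. The log2 change was 5.04 (SE 0.283, edgeR adjusted p = 2.24e-11). Manes.10G123200, ferredoxin-like, gave 1842, 3066 and 4647 FPKM in leaf and 167, 120 and 93.3 in stem, a log2 change of 4.62. Manes.15G102500, without annotation, gave 6608, 7427 and 7947 FPKM in leaf and 346, 288 and 264 in stem, a log2 change of 4.60. Leaf and stem did not overlap for any of these.

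The 5 members called higher in stem were Manes.07G138800, Manes.04G026100, Manes.12G145500, Manes.03G012100 and Manes.04G007600. The last 3 were named for completeness after their values had been seen, and their leaf and stem libraries overlapped. Manes.07G138800 encodes a class of peroxidase that acts outside the cell and in many plants takes part in wall formation. It gave 24.8, 35.5 and 32.8 FPKM in leaf and 318, 103 and 256 in stem, without overlap, and a log2 change of -2.76 (SE 0.543, edgeR adjusted p = 9.63e-05). Manes.04G026100 gave 22.1, 13.8 and 13.9 FPKM in leaf, 83.1, 51.3 and 69.4 in stem and was listed at 0 in all 14 root and culture libraries. Its call was lost without leaf replicate 2, leaf replicate 3 or stem replicate 1. Calls were also lost for Manes.12G145500 without stem replicate 2, for Manes.03G012100 without leaf replicate 1, leaf replicate 3 or stem replicate 1, and for Manes.04G007600 without leaf replicate 2, stem replicate 2 or stem replicate 3.

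The difference was wider between leaf and lateral bud. There 102 members (55.4%) were called higher in leaf, against 10.9% of all tested loci, and 3 (1.63%) were called higher in lateral bud, against 12% of all. The median log2 change was 2.16 for members and -0.10 for all tested loci. Of the 15 light-reaction members 14 were called higher in leaf, with a median of 3.52. Of all 55 light-reaction loci, members included, 46 were, with a median of 3.18. Of the 126 members without annotation, 66 were called higher in leaf and 2 in lateral bud. Manes.15G102500 had the largest ratio, with 149, 73.6 and 104 FPKM in lateral bud and a log2 change of 5.96 (SE 0.332, edgeR adjusted p = 1.38e-13). The locus of NDH-dependent electron flow followed with a log2 change of 5.78, and Manes.15G169800, without annotation, with 4.996, from 1614, 1834 and 1783 FPKM in leaf to 80.0, 24.0 and 44.4 in lateral bud.

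Beside the lipid-transfer locus, Manes.05G050900 and Manes.17G114000 were the members called higher in lateral bud, and neither has an annotation. Manes.05G050900 gave 56.6, 106 and 75.3 FPKM in lateral bud, far from its leaf values, with a log2 change of -4.37 for leaf over bud (SE 0.561, edgeR adjusted p = 2.83e-07). Manes.17G114000 gave 11.3, 22.7 and 13.7 FPKM in leaf and 120, 83.1 and 104 in lateral bud, a log2 change of -2.78. All leaf libraries lay below all bud libraries for both.

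**Figure D5:**
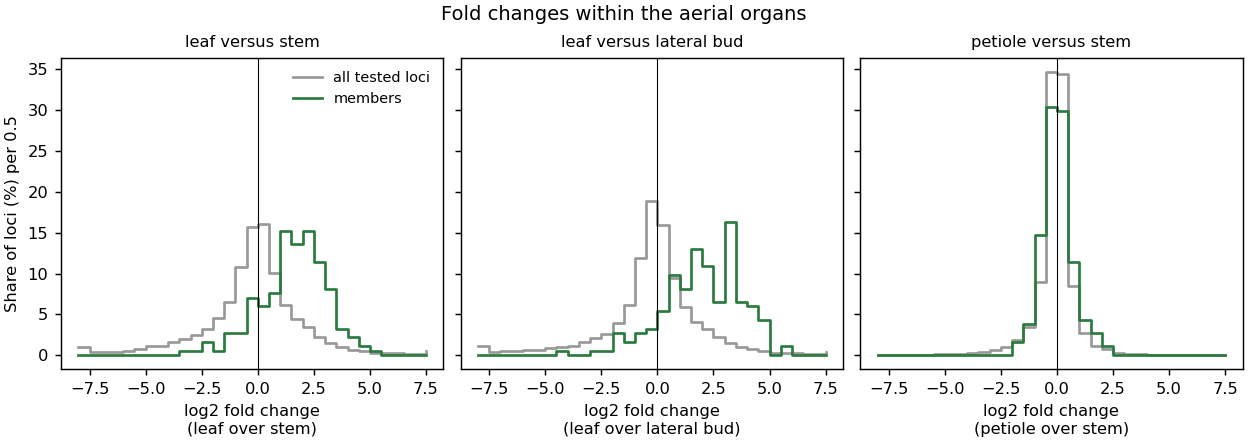
Distribution of log2 fold changes from the edgeR fit for leaf over stem, leaf over lateral bud and petiole over stem, as the share of loci (percent) per interval of 0.5, for all tested loci (grey) and for the 184 members (green). The members' medians are 1.72, 2.16 and -0.01, against -0.07, -0.10 and -0.02 for all tested loci; values beyond 8 were placed in the outermost intervals.

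Few members were called between petiole and stem. Of the members, 1 (0.543%) was called higher in petiole, against 0.713% of all tested loci, and 0 were called higher in stem, against 2.17% of all. DESeq2 and limma on log2(FPKM + 1) also called 0 members higher in stem. Without the fold limit, 9 members passed the adjusted p of edgeR in the direction of petiole and 10 in the direction of stem, and at an unadjusted p below 0.05 there were 18 and 24. The called locus was Manes.12G124000, without annotation, at 544, 386 and 422 FPKM in petiole and 156, 69.4 and 98.1 in stem, a log2 change of 2.07 (SE 0.314, edgeR adjusted p = 9.27e-05). Midvein was close to petiole for this locus, at 404, 438 and 454 FPKM. Its ratio of mean FPKM, 4.18, lay near the limit, and the call was lost without petiole replicate 1, stem replicate 2 or stem replicate 3.

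A few members were nearly level over the aerial organs. Manes.16G133200, without annotation, gave 129, 126 and 116 FPKM in leaf, 59.4, 72.6 and 59.9 in stem, 106, 106 and 81.2 in lateral bud, and 67.9, 55.0 and 47.0 in SAM. Its 5 aerial means spanned 0.953 on the log2 scale, and its leaf and stem libraries still did not overlap. The ABC-2 type transporter Manes.09G041900 spanned 0.797, with 21.5, 13.7 and 19.9 FPKM in leaf and 10.2, 14.3 and 11.6 in lateral bud. Manes.18G037300 had the smallest span, 0.730, but its replicates ranged from 0 to 90.7 FPKM in midvein alone.

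Below the gap, members were compared between storage root and fibrous root, which the rule left free. Only 91 of the 184 reached a mean of 1 FPKM in one of the roots. A locus that passed through its higher organ alone had to differ, so the counts are descriptive. Of these 91, 10 (11%) were called higher in storage root, against 6.48% of all tested loci, and 10 (11%) in fibrous root, against 16.4% of all. The split between the roots was not stable: without the limit on FPKM 12 of 169 members were called higher in storage root and 20 in fibrous root. The counts were 9 and 13 without storage root replicate 1, and 17 and 9 without storage root replicate 2. Manes.17G066700, without annotation and next to the LHCB1 locus, gave 9.85 and 23.4 FPKM in storage root and 0.0923, 0.288 and 0.685 in fibrous root, a log2 change of 5.78 (SE 0.828, edgeR adjusted p = 2.2e-06). This locus passed the limit of 1 FPKM through storage root alone, so it had to differ and its p-value is only descriptive. Manes.14G134800 gave 34.1 and 38.1 FPKM against 3.20, 2.104 and 1.55, and Manes.13G058600 gave 19.96 and 13.9 against 2.54, 1.39 and 4.00. These storage root levels were still under the lowest SAM library of each locus, at 108, 151 and 143 FPKM.

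Of the light-reaction members tested in roots, 1 of 11 was called, the photosystem I subunit L locus Manes.12G055600/Manes.12G055700, with means of 23.4 FPKM in storage root and 3.75 in fibrous root. In the other direction Manes.16G097300/Manes.16G097400, without annotation, gave 13.6, 16.2 and 16.2 FPKM in fibrous root and 2.23 and 1.24 in storage root, a log2 change of -4.38 (SE 0.350, edgeR adjusted p = 2.89e-10). No storage root library overlapped with fibrous root for these loci. Without 1 library in turn, 9 of the 20 calls were lost at least once, none of them among the loci named here.

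Between the cultures, 81 members reached a mean of 1 FPKM in OES or FEC. Of these, 19 (23.5%) were called higher in OES, against 6.89% of all tested loci, and 4 (4.94%) in FEC, against 6.16% of all. As in the roots, a locus that passed through its higher tissue alone had to differ, so these counts are descriptive. Without the limit on FPKM, the counts were 23 toward OES and 14 toward FEC, of 174 members, and the median log2 change was 0.25 in place of 0.62. Light-reaction members were called higher in OES in 10 of 13 tested cases, with a median log2 change of 2.27. Of all 47 light-reaction loci tested, members included, 16 were called higher in OES, with a median of 1.07. Among the members without annotation, 3 of 47 were called higher in OES. The gene lists that gave the annotations include genes differing between OES and FEC, so being annotated already depends on that difference. LHCB1, Manes.17G066800/Manes.17G066900, gave 79.9, 73.6 and 92.2 FPKM in OES and 5.54, 4.14 and 5.70 in FEC, a log2 change of 3.84 (SE 0.309, edgeR adjusted p = 3.8e-10). The ferredoxin-like loci Manes.10G123200 and Manes.07G020100 followed, at 14.9, 15.9 and 9.13 against 2.47, 0.483 and 2.90, and at 12.9, 10.1 and 9.54 against 2.71, 0.875 and 2.27. OES and FEC did not overlap for any of these. For each of them, the highest OES library was below the lowest SAM library.

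Of the pigment members, Crd1 and Manes.15G085400 were called higher in OES as well, at 10.6, 7.28 and 10.4 against 1.31, 0.522 and 0.617 FPKM for Crd1. The FEC mean of Crd1 lay under 1 FPKM, so Crd1 passed the limit through OES alone and had to differ. The 4 members called higher in FEC were the BURP locus Manes.03G065700/Manes.03G066300, phototropin 1, the transporter Manes.09G041900 and Manes.04G046800. The BURP locus gave 43.4, 63.9 and 29.5 FPKM in FEC and 6.44, 8.99 and 6.89 in OES, a log2 change of -2.69 for OES over FEC (SE 0.493, edgeR adjusted p = 8.2e-05). Its FEC libraries overlapped with SAM, at 90.3, 55.2 and 83.2 FPKM. The calls for phototropin 1 and the transporter were lost without FEC replicate 2.

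The members were spread over the genome. By their names, 177 lay on the 18 chromosomes and 7 on scaffolds, with 5 on chromosome 18 and up to 15 on chromosome 15. As a share of the named loci on a chromosome, members ranged from 0.345% on chromosomes 8 and 18 to 0.804% on chromosome 14. Within 3 steps in the order of loci, 17 members formed 8 groups, such as Manes.17G066700 beside LHCB1, and Manes.01G059600, the aquaporin, beside Manes.01G059700. The 8 groups include Manes.18G111000, a single gene name on 2 loci, and a group that holds Manes.15G027800 on 2 loci. How often such groups form among all named loci was not computed. In addition 20 loci held several gene names, and 19 carried a name that another locus carried too, so reads of such genes may be shared. Just inside the limit of the rule, Manes.09G187100, Manes.16G079600 and Manes.09G135700 had gaps of 1.53, 1.56 and 1.56. Just outside, Manes.13G080600/Manes.13G080900, Manes.06G126400 and Manes.03G033100 had gaps of 1.49, 1.47 and 1.47.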

How the data were processed

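Reads were cleaned by the authors with Trimmomatic, mapped to the AM560-2 v6.1 assembly with TopHat2, and assembled and quantified with Cufflinks, Cuffmerge and Cuffdiff. Per the labels the versions were 0.32 for Trimmomatic, 2.0.10 for TopHat2 and 2.2.1 for Cufflinks and Cuffdiff; the paper gives another for TopHat2. For each library and locus the authors deposited an FPKM value, on library sizes scaled by Cuffdiff, and an estimated count of fragments. The deposited signal of scaled fragments was not used, nor was a series-wide table that holds those FPKM values again. Each library is a labelled replicate, and the study's methods call them separate biological replicates.

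Members were found from the tissue means of FPKM with a pseudocount of 1. Tests used edgeR 4.0.16 in R 4.3.3, with limma 3.58.1 and DESeq2 1.42.0 as alternatives, on fragment counts rounded to whole numbers (78.2% of those above 0 were whole). A single fit held 27860 loci, 11 tissue means and TMM factors of 0.720 to 1.15. Tables and plots used Python 3.11.15, pandas 2.3.3, numpy 2.4.6 and matplotlib 3.10.9. Each SE is the log2 change divided by the square root of F. Tested on simulated counts with 200 loci changed 8-fold, the fit recovered 99.5% to 100% per comparison, each over 24629 to 24666 loci. The changed loci were drawn from those with enough fragments, and all loci were given the same spread. The recovery therefore does not cover members with few fragments in roots and cultures, or changes near the 4-fold limit.

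Members, lists and tests were chosen with earlier results of these data known, and words were added to the function lists after the members' annotations had been read. Annotations came from the supplementary gene lists of the study, which hold differentially expressed genes and were available here in shortened form. Positions were taken from gene names. The reference table used here shares no gene name with the files, so no sequences are shown and promoter motifs were not searched.

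Named loci were the 10 with the largest gap, the 10 with the highest lowest aerial mean, the 5 with the smallest aerial range, the 4 with the largest gap per list, the 3 inside and the 3 outside the gap limit, and, per comparison and direction, the 3 called loci with the largest ratio, at least 10 FPKM and no overlap. Others are marked in the text or complete a count of 5 or fewer. Alternatives were other pseudocounts, limits, scalings, tools and sets of libraries, a replicate block, and each library left out in turn. A limit of 10 fragments was added after seeing the data.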

Additional observations from a re-analysis of the deposited data

How the results depend on the processing

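The number of members stayed between 137 and 250 under all planned settings: 238 with a pseudocount of 0.1, 250 and 137 with gap limits of 1 and 2, 165 with FPKM rescaled to a common sum, and 174 to 192 without 1 library. With at least 10 fragments in an aerial library 179 remained, and the counts of called members in all 5 comparisons were the same without the other 5. With the fold limit at 2, or with none, 136 and 147 members were called between leaf and stem, 16 and 19 between petiole and stem, 43 and 48 between the roots, and 40 and 46 between OES and FEC, in place of 81, 1, 20 and 23; fewer criteria let more loci pass. Without a limit on FPKM, 32 of 169 members were called between the roots (12 higher in storage root, 20 in fibrous root) and 37 of 174 between the cultures (23 higher in OES, 14 in FEC). Leaving out 1 library gave 80 to 84 members for leaf and stem, 99 to 113 for leaf and lateral bud (105 with all), 0 to 3 for petiole and stem, 16 to 26 for the roots and 18 to 26 for the cultures. A storage root left with 1 library was assumed to vary like the other tissues. Size factors by RLE, limma, DESeq2 and fits of the compared tissues alone kept each count within 1.5 times. Of 296 further values for named loci, 288 kept direction and call, 8 lost the call and 0 reversed.

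With the replicate number as a block, 81, 105, 1, 20 and 23 members were called in leaf and stem, leaf and lateral bud, petiole and stem, the roots and the cultures, as without it. Deviations of libraries with the same number correlated between -0.11 and 0.14, and not every pair passed 0.1, so the numbers were not taken to pair the samples.

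The limit on the ratio of mean FPKM leaves differences under 4-fold uncalled. The medians of members in roots and cultures lay under 1 FPKM, where few fragments support each value.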
